A study of Poecilia reticulata with 6 samples.

Results

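The genes of DNA replication and cell division were followed in the intestine of the guppy, Poecilia reticulata, at 3 salinities. They were chosen by gene symbol: the subunits of the mcm helicase, the origin recognition complex, the replicative polymerases and their clamp and clamp loader, the enzymes of nucleotide supply, the cyclins, the cyclin-dependent kinases, the mitotic kinases, the centromere and condensin proteins, the mitotic kinesins and mki67. Of the 10389 genes in the table, 95 carried a matching symbol. Of these, 88 reached a TPM (a transcript level scaled for transcript length and for the summed signal of the library) of at least 1 in at least 2 libraries and were analysed. A symbol is not a function, however. Of the 88 genes, 57 had a role in replication or division, and 31 carried a matching symbol but are known for other work, such as cdc42 and the genes named after it, which act on the actin cytoskeleton, the chaperone cdc37, and the transcription kinases cdk8, cdk9 and cdk12. The 57 and the 31 genes are therefore given separately.

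Total RNA came from the intestine of adult wild-type guppies at 0‰, 18‰ and 35‰ salt, with 2 libraries at each salinity. The labels write the same 3 values as percent salt. Salt was added to the tanks in steps until 35‰ was reached, so salinity and time of exposure cannot be told apart, and neither the number of fish behind a library nor their sex is given in the sources used here. The p-values therefore measure the spread between libraries, which may be technical. TPM keeps no depth, and a whole tissue was sequenced, so fewer dividing cells and less RNA per dividing cell cannot be told apart. The genes in the table summed to 419412 and 427838 TPM at 0‰, 446532 and 459528 at 18‰, and 481864 and 481529 at 35‰. This sum thus rose with salinity. TPM is scaled to a fixed total in each library, so the sum measures neither depth nor RNA output. In each library, between 7392 and 7590 genes reached a TPM of 1. Genes with a TPM of 0 numbered 1275 in 35‰ replicate 2 and 1006 to 1069 in the other libraries.

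The lining of the gut is among the fastest renewing tissues of vertebrates. In fish, dividing cells sit at the base of the intestinal folds, and their daughters differentiate as they move toward the tip. A cell about to divide loads the mcm helicase onto its origins with the help of the origin recognition complex and cdc6, copies its DNA with the polymerases held by the sliding clamp pcna, and then condenses and separates its chromosomes under the control of cdk1 with cyclin B. The mRNAs of many of these genes are made mainly in cycling cells and are used in many tissues as a readout of how many cells divide.

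No replication or division gene passed the threshold at any salinity. The most abundant of the 57 was the clamp pcna (ENSPREG00000012184), with a TPM of 230 and 176 at 0‰, 164 and 149 at 18‰, and 138 and 280 at 35‰. For mki67 (ENSPREG00000020481), the proliferation antigen, a protein that coats mitotic chromosomes, the TPM was 18.1 and 17.1 at 0‰, 14.9 and 10.9 at 18‰, and 8.08 and 19.6 at 35‰. In both genes 35‰ replicate 1 was the lowest and 35‰ replicate 2 the highest of the 6 libraries, with those at 0‰ and 18‰ between them. This order held for 23 of the 57 genes, these 2 among them, and for 6.45% of all genes. Of the 88 genes, 0 were called in each of the 3 comparisons (limma's moderated test on log2(TPM + 1), adjusted p under 0.05 after Benjamini-Hochberg adjustment over 7897 genes and a fold change above 1.5). Over all genes tested, the same rule called 0.0127% in 18‰ versus 0‰, 0.19% in 35‰ versus 0‰ and 0.317% in 35‰ versus 18‰. The smallest adjusted p among the 88 was 0.734, 0.38 and 0.266 in these comparisons from limma. Among the 57 it was 0.734, 0.427 and 0.39. Without adjustment, 1, 2 and 3 of the 88 had a p under 0.05 from limma, and 1, 1 and 1 of the 57. Of all genes, 5.93%, 11.3% and 12.5% did. The 95% confidence interval of the fold change lay within a 2-fold change in either direction for 28 of the 57 genes at 18‰ versus 0‰, for 26 of them at 35‰ versus 0‰ and for 25 at 35‰ versus 18‰. For the other genes, a 2-fold difference between salinities was within the interval.

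**Figure D1:**
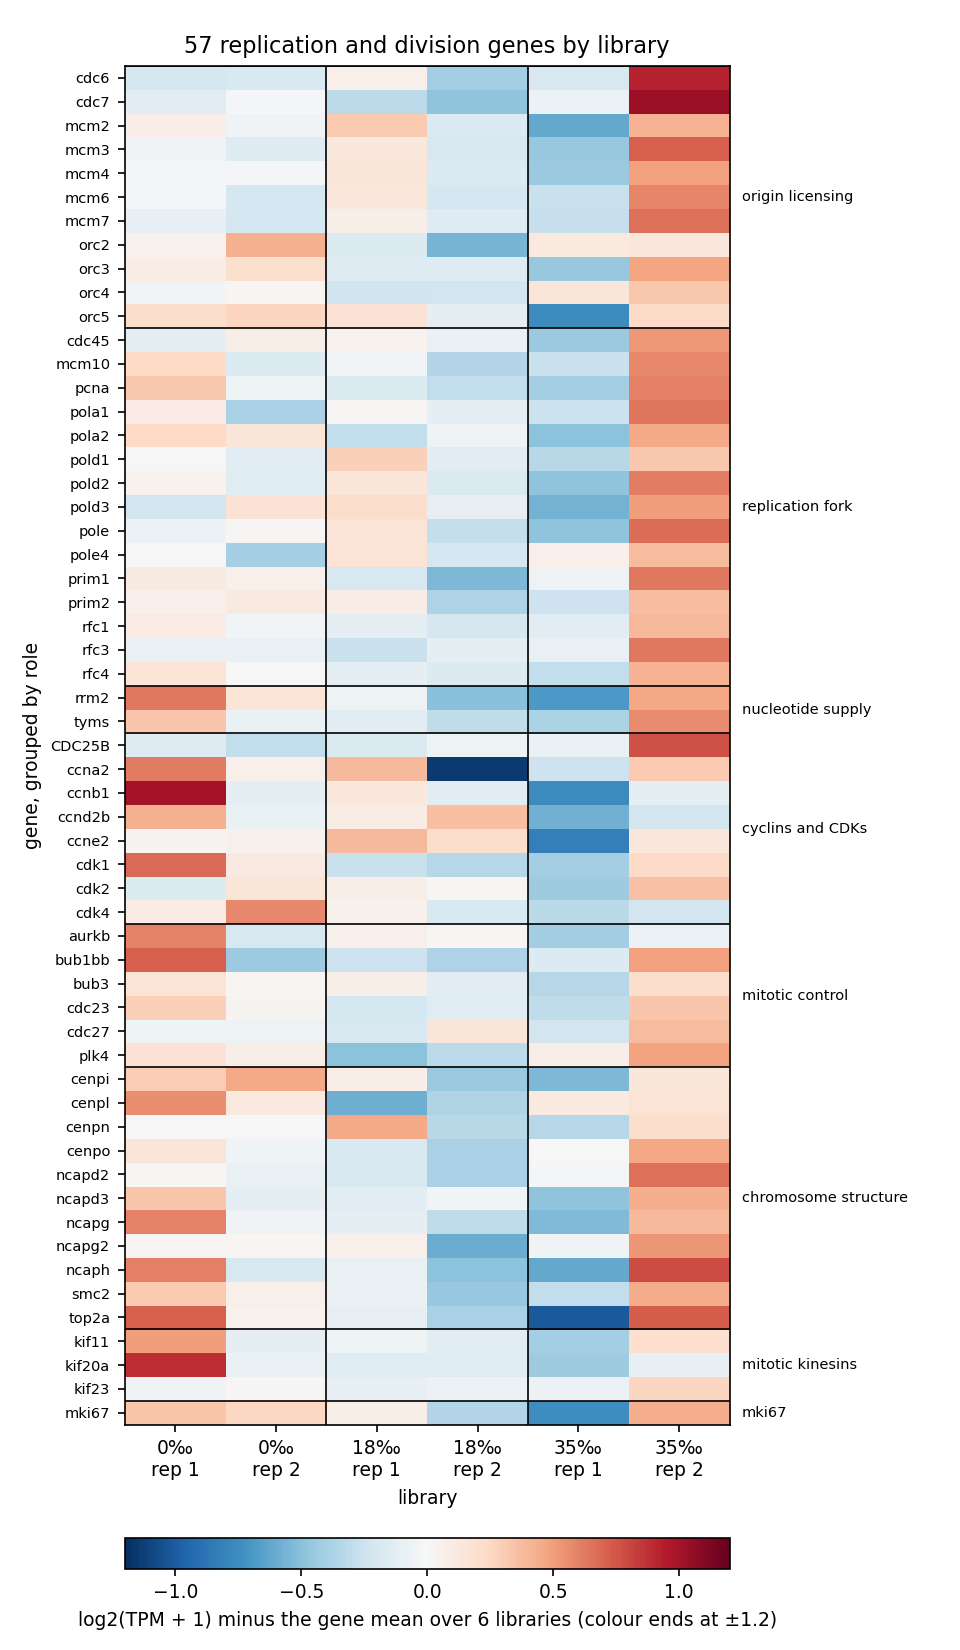
Level of each of the 57 replication and division genes in the 6 libraries, as log2(TPM + 1) minus the mean of the gene (colour, ending at ±1.2), with genes in rows grouped by role and libraries in columns. The column of 35‰ replicate 2 is red for most genes and that of 35‰ replicate 1 is blue, while the columns at 0‰ and 18‰ are paler.

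The 2 libraries at 35‰ stood apart from each other in these genes. All 57 replication and division genes had a higher TPM in replicate 2 than in replicate 1 at 35‰, as did 64.1% of all genes tested. For 48 of the 57 the difference exceeded 1.5-fold, against 25.7% of all genes, and the median ratio was 1.89, against 1.16 over all genes. Of the 31 genes with other roles, 20 were higher in replicate 2, with a median ratio of 1.14. Summed over the 57 genes, the TPM was 841 and 700.4 at 0‰, 694 and 621 at 18‰, and 539 and 1003 at 35‰. Its mean was thus 771 ± 99.4 at 0‰, 657 ± 52 at 18‰ and 771 ± 328 at 35‰ (SD, n = 2), and the other 4 libraries lay between those at 35‰. The sum of the whole table rose with salinity, however. As a share of it, the 57 genes made up 0.201% and 0.164% at 0‰, 0.155% and 0.135% at 18‰, and 0.112% and 0.208% at 35‰. Of the 57 genes, 40 had their highest value of the 6 in 35‰ replicate 2 and 36 their lowest in 35‰ replicate 1, against 24.2% and 31.4% of all genes. When the libraries were scaled to a common median ratio, a step added after seeing the data, 53 of the 57 genes were still higher in replicate 2, where 49.9% of all genes were. The size of the difference fell with this scaling. It exceeded 1.5-fold for 34 of the 57 genes, in place of 48, and for 16.5% of all genes.

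**Figure D2:**
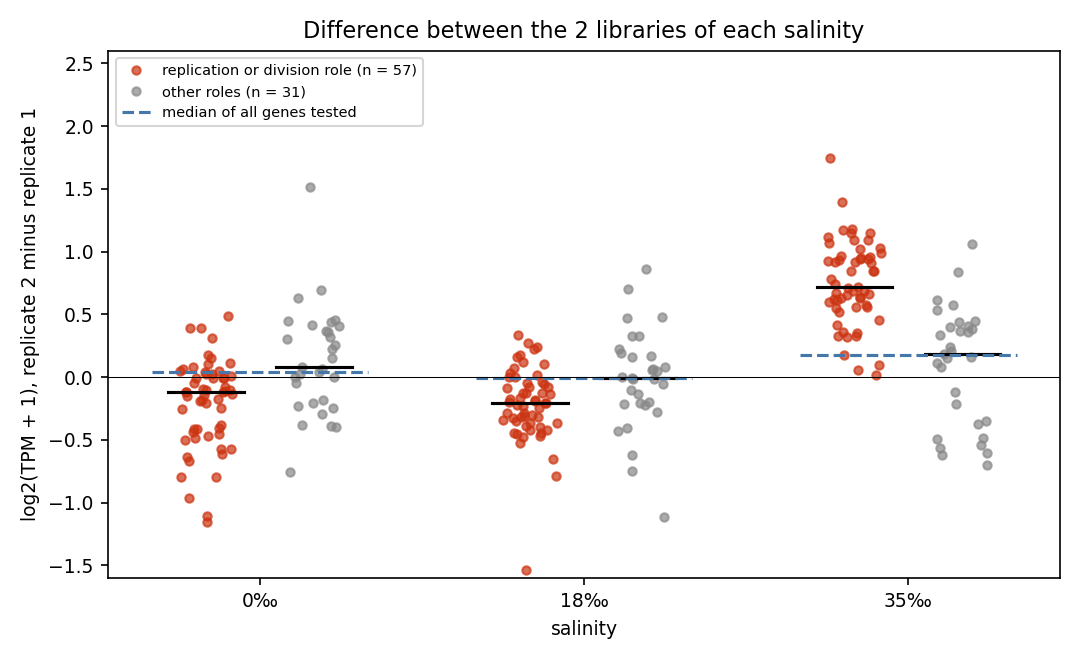
Difference in log2(TPM + 1) between replicate 2 and replicate 1 (y axis) at each salinity (x axis), with a point for each gene, the median of each group as a black line and the median of all genes tested as a dashed line. At 35‰ all 57 replication and division genes lie above 0, with a median of 0.72, while the 31 genes with other roles have a median of 0.19.

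Genes of other cell types were compared between the same libraries. In replicates 1 and 2 at 35‰, the 9 leukocyte genes summed to a TPM of 466 and 413, with 2 of 9 higher in replicate 2, and the 10 enterocyte genes in the table to 5117 and 4872, with 6 of the 9 tested higher. The erythroid genes summed to 15.2 and 24.4, with 5 of the 6 tested higher in replicate 2 and a median ratio of 1.59, and over the 6 libraries their sum ran between 8.98 and 24.4. Of the 9 germ cell genes in the table, 6 stayed under a TPM of 1 in every library, and the list summed to 3.98 and 2.16. The 3 exocrine pancreas genes summed to 9.41 and 78.2 at 35‰, below each of the other libraries, where the lowest sum was 2559. The part of these cell types in the levels of the division genes was not tested.

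Over the 57 genes, log2 fold changes at 18‰ were below 0 for most and ran from −0.81 to 0.26. In 18‰ versus 0‰, 40 of the 57 had a log2 fold change below 0, with a median of −0.23, while the median of all genes tested was 0.06. Of the 57, 27 (among them pcna, rrm2, tyms, cdk1, top2a and mki67, and no mcm gene) were lower at 18‰ without overlap and 1 was higher, and over the 88 genes these counts were 33 and 11. Over all genes tested, 12.8% were lower and 24.7% higher without overlap. These shares depend on the scaling. With median-ratio scaling, 36 of the 88 were lower and 8 higher, where 18.2% and 18.4% of all genes were. The 57 genes are measured in the same 4 libraries and rise and fall together within a salinity, so they are not 57 separate observations. The median was below 0 with each library left out in turn, between −0.30 and −0.11. The 57 genes were also set against their own means over all libraries. The median deviation was −0.056 and −0.21 at 18‰, against 0.099 and −0.021 at 0‰. These library medians did not overlap, but an exact permutation test of 2 against 2 libraries cannot go below p = 0.333. Their pooled SD on the log2 scale was 0.096 within these salinities and 0.33 within all 3 salinities. Markers of other cell types went in both directions in this comparison. Fold changes were above 0 for all 9 tested enterocyte genes, 7 of 8 stem and progenitor genes and 5 of 6 muscle genes (median 0.46). They were also above 0 for the 2 tested germ cell genes, while 3 of 6 erythroid genes were above 0 and 3 below. Of the 9 leukocyte genes, 8 were below 0 (median −0.45), with sums of 364 and 424 TPM at 18‰, against 961 and 311 TPM at 0‰. All 3 exocrine pancreas genes were below 0 too (median −1.04), with sums of 5292 and 2559 TPM at 18‰, against 9860 and 4803 TPM at 0‰. The 5 liver genes in the table summed to 4.99 and 4.37 TPM at 18‰, against 21.8 and 447 TPM at 0‰, so that 0‰ replicate 2 stood far above the other libraries. Their part in the values of the division genes was not tested.

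In 35‰ versus 0‰, the 57 genes showed no common direction. The median log2 fold change was −0.032, with 25 genes above 0 and 32 below, and over all genes it was −0.0085. Without 35‰ replicate 1 the median was 0.35, and without 35‰ replicate 2 it was −0.42, so a single library decided its sign. The pooled SD of the library medians within these salinities was 0.39. Of the 57 genes, 3 were higher and 5 lower without overlap, and of the 88 genes 7 and 10, where 18.9% and 20.0% of all genes were. In 35‰ versus 18‰ the median of the 57 was 0.18, with 41 above 0, and over all genes it was −0.072. It was 0.58 without 35‰ replicate 1 and −0.23 without 35‰ replicate 2. In this comparison 10 of the 57 genes were higher and 4 lower without overlap. Of the 88 genes, 14 were higher and 11 lower, where 18.7% and 29.0% of all genes were.

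**Figure D3:**
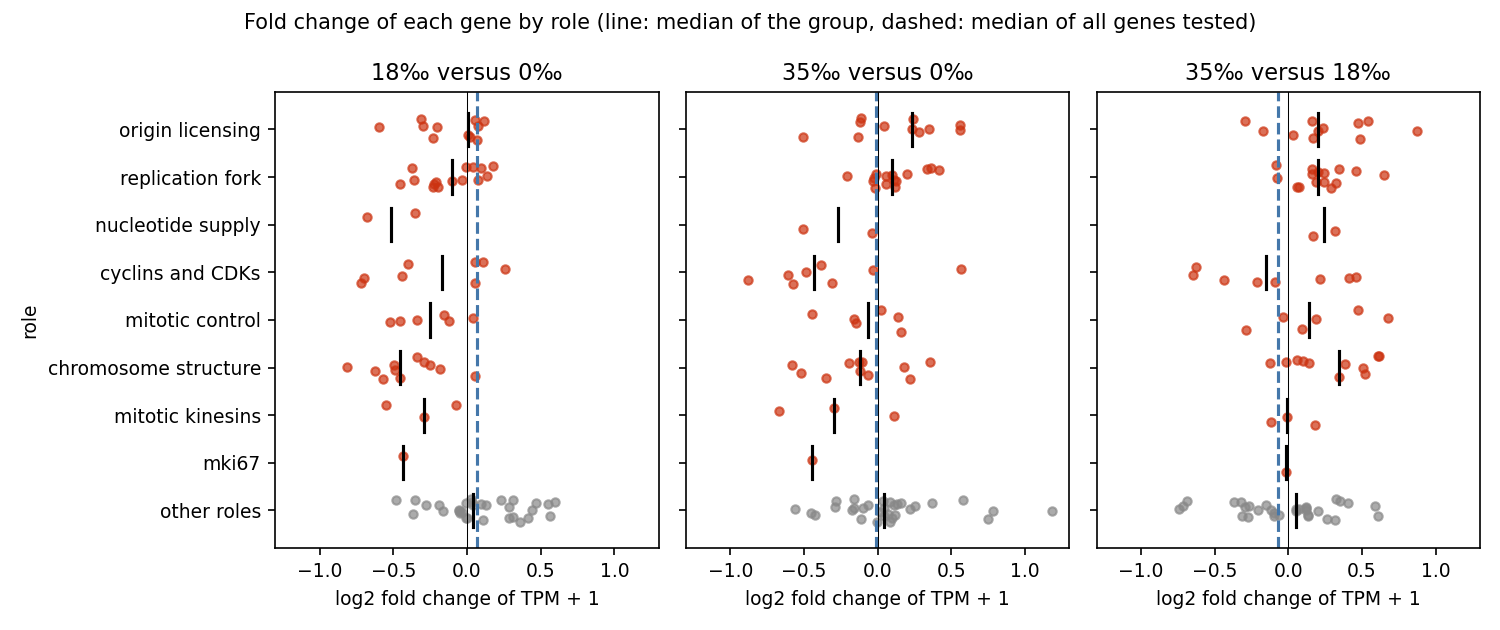
Log2 fold change of TPM + 1 (x axis) of each of the 88 genes by role (y axis) in the 3 comparisons, with the median of each role as a black line and the median of all genes tested as a dashed line. In 18‰ versus 0‰ the chromosome genes lie mostly below 0, with a median of −0.45, and the licensing genes have a median of 0.01.

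Among the genes that license origins, the mcm subunits had parallel levels. The mcm7 gene (ENSPREG00000014071) had a TPM of 39.6 and 36.4 at 0‰, 44.5 and 38.0 at 18‰, and 34.8 and 67.5 at 35‰. For mcm2 (ENSPREG00000022748) it was 27.7 and 25.4 at 0‰, 32.6 and 23.2 at 18‰, and 16.8 and 35.2 at 35‰. For mcm6 it was 23.9 and 20.9 at 0‰, 26.7 and 20.9 at 18‰, and 20.1 and 37.0 at 35‰. In each of the 5 subunits 35‰ replicate 2 was the highest library and 35‰ replicate 1 the lowest. The mcm4 gene ranged between 14.8 and 29.3 TPM in this way and mcm3 between 10.4 and 24.6. The subunits form 1 ring in the cell, together with mcm5, which was not analysed here. Of the summed TPM of the 5 genes, mcm7 made up 31.2% to 36% in the 6 libraries, mcm2 17.3% to 22.9%, mcm6 18.1% to 20.8%, mcm4 no more than 17.4% and mcm3 10.7% to 12.7%. The share of mcm2 was 17.3% and 18.2% at 35‰ and at least 20.6% in the other libraries. That of mcm7 was 36% and 34.9% at 35‰ and at most 33.6% in the others. The ratio of the libraries at 35‰ was 2.1 for mcm2 and 1.94 for mcm7. The differences between salinities were smaller, with log2 fold changes of the 5 subunits between 0.01 and 0.11 in 18‰ versus 0‰ and between −0.12 and 0.35 in 35‰ versus 0‰. For mcm7 the last value had a 95% interval of −0.43 to 1.12 (adjusted p = 0.727 from limma).

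The other licensing genes were less abundant. The kinase cdc7 (ENSPREG00000007945), which fires licensed origins, had a TPM of 3.16 and 7.87 at 35‰, against 2.52 and 2.13 at 18‰ (log2 fold change 0.87, adjusted p = 0.4 from limma), and the libraries of these salinities did not overlap. The 4 origin recognition genes orc2, orc3, orc4 and orc5, whose products mark the origins and which are singled out here after their values were seen, had log2 fold changes of −0.60, −0.30, −0.23 and −0.21 in 18‰ versus 0‰, and in all 4 both libraries at 18‰ lay below both at 0‰, as for 12.8% of all genes. The ratio of replicate 2 to replicate 1 at 35‰ was 1.01 for orc2 and 1.14 for orc4, and 2.14 for orc3 and 2.42 for orc5.

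The 15 genes of the replication fork included the primase and polymerase subunits and the clamp loader. All 15 had their highest TPM in 35‰ replicate 2, and 14 of them exceeded 35‰ replicate 1 by over 1.5-fold. The primase subunit prim1 (ENSPREG00000007112), which lays the first primer, had a TPM of 11.6 and 19.3 at 35‰, against 10.5 and 8.02 at 18‰ (log2 fold change 0.65, adjusted p = 0.413 from limma). The clamp pcna had a log2 fold change of −0.36 at 18‰ versus 0‰. At 35‰ versus 0‰ it was −0.034, with a 95% interval of −0.87 to 0.80. The median over the 15 genes was −0.10 in 18‰ versus 0‰, 0.10 in 35‰ versus 0‰ and 0.20 in 35‰ versus 18‰. Nucleotide supply was measured through tyms (ENSPREG00000007696), which makes thymidylate, and rrm2 (ENSPREG00000014623), the small subunit of ribonucleotide reductase. The TPM of rrm2 was 19.7 and 14.0 at 0‰, 11.9 and 8.44 at 18‰, and 7.33 and 17.5 at 35‰. For tyms it was 37.1 and 27.6 at 0‰, 26.5 and 23.4 at 18‰, and 22.2 and 43.6 at 35‰. Both genes were lower at 18‰ than at 0‰ without overlap. At 35‰, replicate 1 was the lowest of the 6 libraries for both, and replicate 2 was the highest for tyms and stood between the 0‰ libraries for rrm2.

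**Figure D4:**
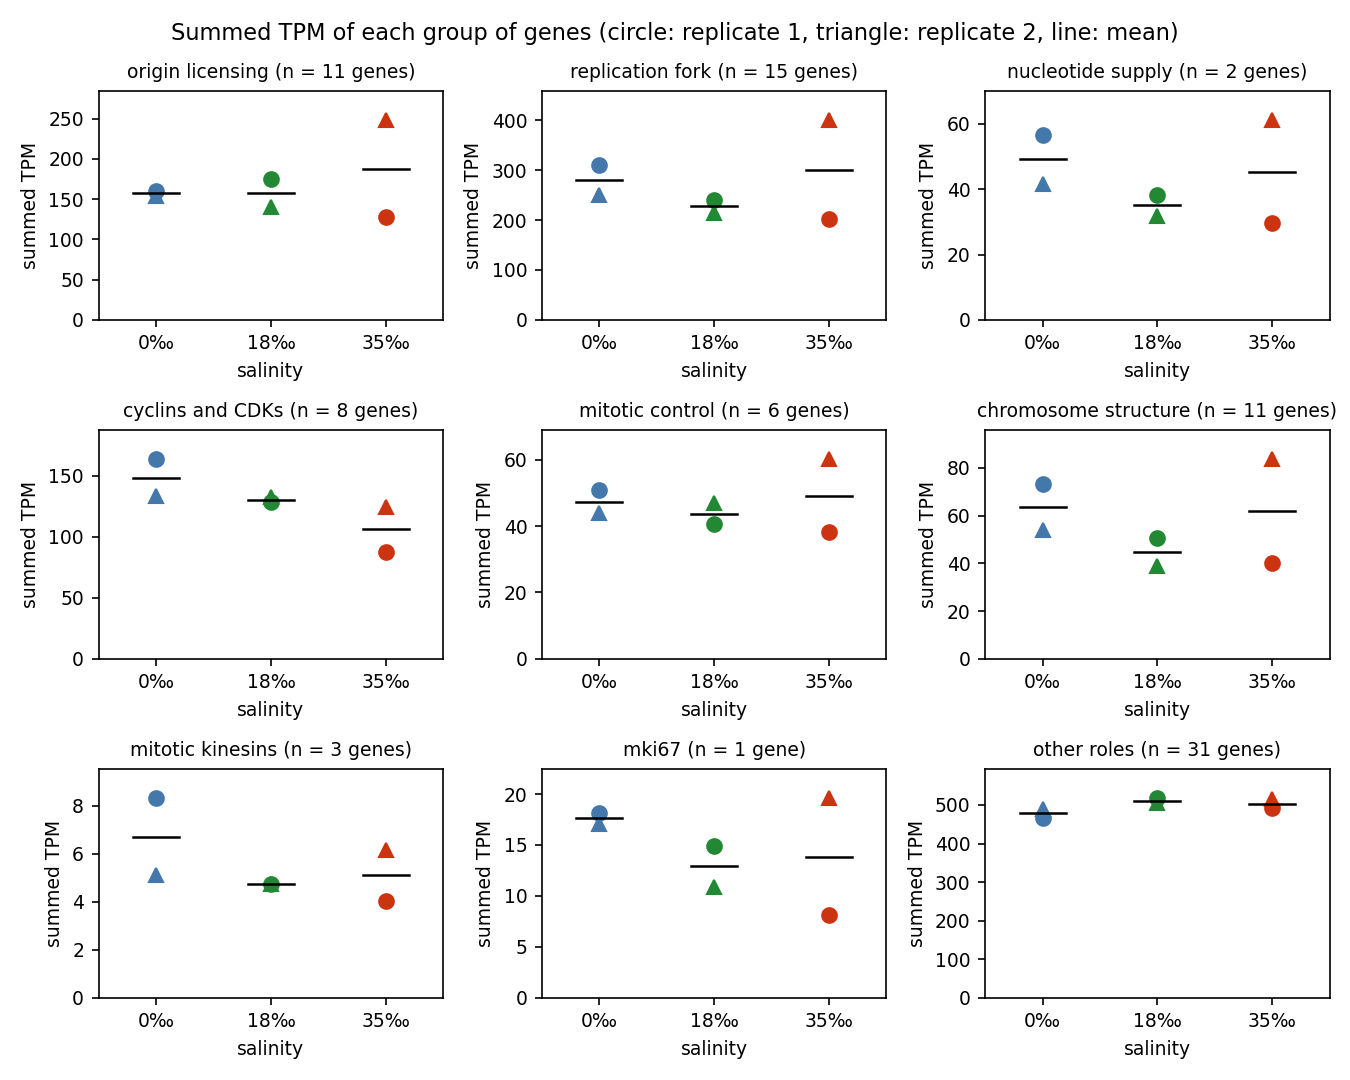
Summed TPM (y axis, from 0) of the genes of each role at each salinity (x axis), with a circle for replicate 1, a triangle for replicate 2 and a line for their mean. In the licensing and fork panels the triangle at 35‰ stands highest, at 248 and 400 TPM, and the circle lowest, at 128 and 203 TPM, while the 31 genes with other roles stay between 466 and 517 TPM.

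The 8 genes of the cyclins and their kinases, counted with the phosphatase CDC25B, had 2 genes highest in 35‰ replicate 2. In 35‰ versus 0‰, 7 had a log2 fold change below 0 (median −0.43), and 3 were lower without overlap, against 20.0% of all genes. The exception was CDC25B, with a log2 fold change of 0.57, which was higher without overlap, as were 18.9% of all genes. The kinase cdk4 (ENSPREG00000014735), which with D cyclins starts the cycle, had a TPM of 17.4 and 18.7 at 35‰, against 23.6 and 33.5 at 0‰. Its log2 fold change was −0.61 (standard error 0.25, unadjusted p = 0.0449, adjusted p = 0.427 from limma), and its libraries at 35‰ differed by a ratio of only 1.07. Its partner ccnd2b (ENSPREG00000022859), a D cyclin, had 39.0 and 50.2 at 35‰, against 79.1 and 55.6 at 0‰ (log2 fold change −0.57, adjusted p = 0.474 from limma). The mitotic cyclin ccnb1 (ENSPREG00000020261) had 2.89 and 5.06 at 35‰, against 12.1 and 5.09 at 0‰, so the higher library at 35‰ stood just under the lower one at 0‰ (log2 fold change −0.88, 95% interval −1.85 to 0.09, adjusted p = 0.473 from limma). The mitotic kinase cdk1 (ENSPREG00000007000) had 25.8 and 17.0 at 0‰, 12.9 and 12.2 at 18‰, and 11.6 and 18.6 at 35‰. It was lower at 18‰ than at 0‰ without overlap (log2 fold change −0.70, standard error 0.31, adjusted p = 0.828 from limma). For ccna2, the cyclin of S phase, the libraries at 18‰ stood at 5.41 and 1.21 and overlapped those at 0‰, at 6.54 and 4.08. At 35‰ it had 3.12 and 5.07. The ccne2 gene, a cyclin of S phase entry, stayed between 0.09 and 1.53 TPM, close to the pseudocount of 1, so the size of its fold change depends on the pseudocount.

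The genes of chromosome structure, mitotic control and the mitotic kinesins mostly had fold changes below 0 at 18‰ versus 0‰. Of the 11 chromosome genes, 10 had a log2 fold change below 0 in this comparison and 7 were lower without overlap, as were 12.8% of all genes (median −0.45). Topoisomerase top2a (ENSPREG00000020534), which untangles sister chromatids, had a TPM of 8.25 and 6.58 at 18‰, against 15.3 and 9.22 at 0‰ (log2 fold change −0.62, adjusted p = 0.981 from limma). At 35‰ its libraries stood at 3.91 and 15.4, a ratio of 3.94. The condensin subunit ncapd2 (ENSPREG00000010722) had 9.69 and 8.27 at 18‰, against 11.3 and 10.4 at 0‰. The centromere gene cenpl (ENSPREG00000009394) had 0.65 and 0.93 at 18‰, against 2.65 and 1.69 at 0‰ (log2 fold change −0.81, unadjusted p = 0.0229, adjusted p = 0.734 from limma). At these levels the size depends on the pseudocount, with −1.34 for a pseudocount of 0.1 and −0.31 for 5. The polo kinase plk4, which starts centriole duplication, had 1.58 and 2.43 at 35‰, against 0.75 and 0.98 at 18‰ (log2 fold change 0.68, or 1.11 and 0.25 with these pseudocounts, unadjusted p = 0.0439, adjusted p = 0.39 from limma). The kinesin kif20a, needed for cytokinesis, had 4.13 and 1.63 at 0‰, 1.51 in both libraries at 18‰, and 1.06 and 1.59 at 35‰. The aurkb and kif11 genes, a kinase of the centromere and a spindle motor, did not exceed 2.85 and 1.46 TPM. The libraries of kif11 overlapped in all 3 comparisons, while aurkb had 0.90 and 1.42 at 35‰, against 1.66 and 1.58 at 18‰, without overlap. The kinesin kif23 ran between 2.56 and 3.58 TPM. The centromere gene cenpi had 1.61 and 3.19 at 35‰, against 3.69 and 4.21 at 0‰. The anaphase gene cdc27, the most abundant of mitotic control, ran between 25.3 and 38.8 TPM, and its libraries overlapped in all 3 comparisons.

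The levels of mitosis genes were also set against those of the mcm genes. A group of 9 genes (mki67, top2a, ccna2, ccnb1, cdk1, aurkb, bub1bb, kif11 and kif20a) was put together after the values were seen and therefore not tested. They are called mitosis genes here, although ccna2 is the cyclin of S phase and mki67 a proliferation antigen. The 9 genes summed to a TPM of 90.6 and 57.4 at 0‰, 53.2 and 41.1 at 18‰, and 33.8 and 71.2 at 35‰. Summed over the 5 mcm genes, the TPM was 125 and 116 at 0‰, 143 and 113 at 18‰, and 96.9 and 194 at 35‰. Dividing these, the ratio was 0.72 and 0.49 at 0‰, 0.37 and 0.36 at 18‰, and 0.35 and 0.37 at 35‰. This closeness of the ratios at 18‰ and 35‰ belonged to this choice of genes. With all 21 genes of mitotic control, chromosome structure and the kinesins and mki67 in place of the 9, the ratio was 1.2 and 1.04 at 0‰, 0.78 and 0.90 at 18‰, and 0.93 and 0.87 at 35‰. Both ratios at 0‰ were then still the highest, but the others spread more widely and came nearer to them. The 21 genes leave out ccna2, ccnb1 and cdk1, which were among the 9. They take in cdc27, at 25.3 to 38.8 TPM, so the 2 groups differ in content as well as size. At 0‰, replicate 1 had more of the mitosis genes, and the same library had the most leukocyte signal. The 9 leukocyte genes summed to 961 TPM there and to 364 to 466 in the 4 libraries at 18‰ and 35‰. Their lowest sum, 311 TPM, was in 0‰ replicate 2. Of the 6 libraries, 0‰ replicate 1 also had the highest exocrine pancreas sum (9860 TPM) and the lowest enterocyte sum (3069 TPM). All 9 leukocyte genes were detected in every library. The part of these cell types in the ratio was not tested.

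**Figure D5:**
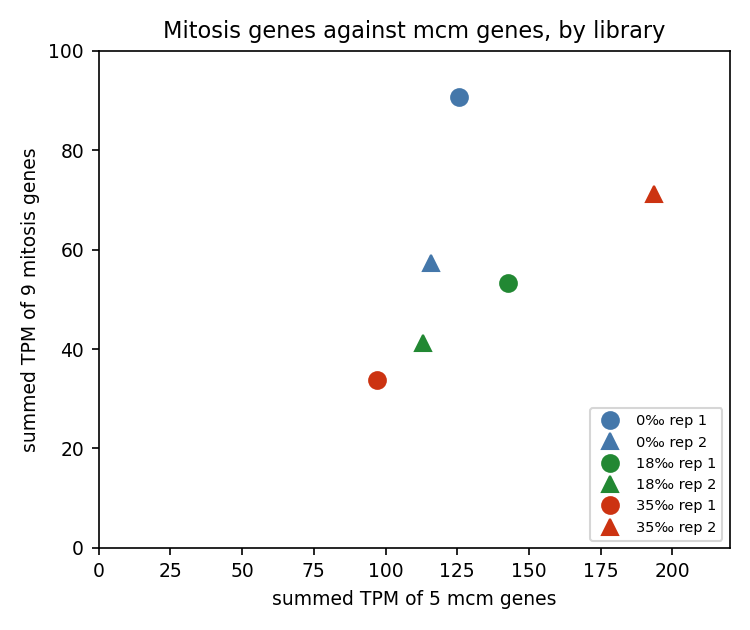
Summed TPM of 9 mitosis genes (y axis) against summed TPM of 5 mcm genes (x axis), with a point for each library, circles for replicate 1 and triangles for replicate 2. The 4 libraries at 18‰ and 35‰ have a ratio between 0.35 and 0.37, and both libraries at 0‰ stand above them, at 0.72 and 0.49, for these 9 genes chosen after their values were seen.

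The 31 genes that share a symbol but not the role varied less between the libraries when summed. Their summed TPM was 466.5 and 491 at 0‰, 517 and 504 at 18‰, and 491 and 516 at 35‰, and their median log2 fold change was 0.04, 0.05 and 0.05 in the 3 comparisons. Among them, cdk14 (ENSPREG00000010573), a kinase of Wnt signalling, had a TPM of 1.71 and 2.67 at 35‰, against 0.95 and 0.72 at 0‰ (log2 fold change 0.78, unadjusted p = 0.0309, adjusted p = 0.38 from limma). It too is close to the pseudocount of 1, and its log2 fold change was 1.27 with a pseudocount of 0.1 and 0.30 with 5. The mcm9 gene (ENSPREG00000021053), a helicase of DNA repair and not of the replicative ring, had 5.77 and 7.75 at 35‰, against 3.24 and 3.95 at 0‰ (log2 fold change 0.75, adjusted p = 0.467 from limma). The Cdc42 effector cdc42ep4b (ENSPREG00000009755) had 22.8 and 24.1 at 35‰, against 38.3 and 39.7 at 18‰ (log2 fold change −0.71, unadjusted p = 0.0118, adjusted p = 0.266 from limma). Its libraries agreed closely at both salinities, and its adjusted p was the smallest of the 88 genes in this comparison. Another effector, cdc42ep5 (ENSPREG00000008012), had 73.3 and 81.8 at 18‰, against 47.5 and 56.9 at 0‰ (log2 fold change 0.57, adjusted p = 0.828 from limma). One of the 2 genes named CDK17 (ENSPREG00000015857) had 1.32 and 2.03 at 35‰, against 3.75 and 3.12 at 18‰ (log2 fold change −0.74, or −1.02 and −0.34 with these pseudocounts, adjusted p = 0.362 from limma), and the libraries of the other overlapped. The table holds 2 genes named cdc42 or CDC42, with 10.5 and 36.1 TPM in 0‰ replicate 1. Their sequences were not compared, so whether reads are shared between them is unknown and the split is uncertain. Other genes of the 31 without overlap between salinities included cdk8, with 8.28 and 8.63 at 18‰, against 5.15 and 6.89 at 0‰, and cdc42ep1a, with 3.24 and 4.0 at 35‰, against 8.58 and 4.71 at 18‰. The cdc42se1 gene had 20.6 and 23.1 at 35‰, against 4.93 and 16.0 at 0‰, and cdc42bpab had 12.5 and 16.2 at 35‰, against 7.0 and 11.95 at 0‰.

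Genes of replication and division outside the symbol rule were also mostly higher in replicate 2 than in replicate 1 at 35‰. From a list of 99 symbols, including the gins helicase partners, the cohesin subunit rad21a, the lamin lmnb2 and the kinetochore gene spc25, 58 genes passed the filter. At 35‰, 56 of them had a higher TPM in replicate 2 than in replicate 1, with a median ratio of 1.88, against 64.1% of all genes, and the exceptions were stmn1a and blm. Fewer had their highest value in 35‰ replicate 2, with 28 of the 58, against 40 of the 57 and 24.2% of all genes. For 21 of the 58 the highest library was 0‰ replicate 1, against 11 of the 57 and 1383 of all 7897 genes. The 58 genes were measured in the same 6 libraries and listed with earlier results known, so they are not a separate test. In 18‰ versus 0‰ their median log2 fold change was −0.18, with 44 below 0, and 20 were lower and 2 higher without overlap, where 12.8% and 24.7% of all genes were. None passed the threshold in any comparison. In 18‰ versus 0‰, 35‰ versus 0‰ and 35‰ versus 18‰, 1, 1 and 2 had an unadjusted p under 0.05 from limma, against 5.93%, 11.3% and 12.5% of all genes. The gins2 gene (ENSPREG00000012868), a partner of the mcm ring, had a TPM of 5.54 and 4.78 at 18‰, against 12.4 and 9.26 at 0‰ (log2 fold change −0.93, unadjusted p = 0.0132, adjusted p = 0.645 from limma).

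Brakes of the cell cycle had mostly positive fold changes at 18‰. Of 16 tested genes, 13 had a log2 fold change above 0 in 18‰ versus 0‰ (median 0.28). So did 4654 of all 7897 genes tested, with a median of 0.06. The 16 include the p53 gene, the tob genes and the gadd45 stress genes, and also mdm2, which is not itself a brake. Of the 16, 6 were higher without overlap, as were 24.7% of all genes. The gadd45ga gene (ENSPREG00000016178), whose product halts the cycle after stress in mammals, had 28.1 and 31.0 TPM at 18‰, against 8.23 and 8.90 at 0‰. Its log2 fold change was 1.68 (standard error 0.23, unadjusted p = 0.000151, adjusted p = 0.178 from limma), and at 35‰ it stood at 15.9 and 12.6. The related gadd45aa had 21.3 and 36.0 at 18‰, against 16.2 and 10.5 at 0‰ (log2 fold change 1.03, adjusted p = 0.721 from limma). Of the 16 genes, 10 were below 0 in 35‰ versus 0‰ (median −0.056) and 13 in 35‰ versus 18‰ (median −0.31). The tob1b gene (ENSPREG00000018697), an antiproliferative protein, had 52.6 and 62.3 at 35‰, against 26.4 and 28.4 at 0‰ (log2 fold change 1.04, standard error 0.24, adjusted p = 0.204 from limma). Of the 16 genes, 0 were called by limma in any comparison, and 2, 2 and 5 had an unadjusted p under 0.05 in 18‰ versus 0‰, 35‰ versus 0‰ and 35‰ versus 18‰, against 5.93%, 11.3% and 12.5% of all genes. The first 2 counts were of higher genes, and of the 5 in 35‰ versus 18‰, 4 were lower. Of 8 stem and progenitor genes tested, 7 had a log2 fold change above 0 in 18‰ versus 0‰ (median 0.34). The 9 tested enterocyte genes, which mark differentiated cells, all did (median 1.03), with 7 higher without overlap, against 24.7% of all genes. Several of the 9 carry the same name, slc5a1, so they are not 9 separate markers. Of the stem and enterocyte genes, limma called 0, and 1 stem gene and 6 enterocyte genes had an unadjusted p under 0.05. Their part in the values of the division genes at 18‰ was not tested.

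Of the 95 matching genes, 7 did not pass the filter: aurka, ccnb3, cdk21, CDK18, cdk5r1b, cenpv and the second kif23 gene (ENSPREG00000010939). The filter split genes of similar level, as aurka ranged between 0.29 and 2.01 TPM with only 1 library at 1 or above, while kif11, which passed with 2 such libraries, ranged between 0.31 and 1.46.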

How the data were processed

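Total RNA of guppy intestine was sequenced in 6 libraries, 2 at each of 3 salinities. Per the submitters' processing notes and the methods of the study, reads were aligned with STAR and quantified with StringTie, and DESeq2 was used for the differential expression of the study. Versions, genome build and annotation are not given in the sources used here. The deposited values are TPM per gene, made by the authors from these estimates. TPM keeps no depth, so depth per library is unknown and no counting interval can be given.

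Groups came from the sample labels. A gene was tested if 2 or more libraries reached a TPM of 1, which 7897 of 10389 genes did. Values were tested as log2(TPM + 1), so fold changes of low genes are understated, with limma 3.58.1 in R 4.3.3 (1 fit over the 6 libraries, moderated variance with a trend, 3 comparisons) and Benjamini-Hochberg adjustment over all 7897 genes. The comparisons share libraries. A call needed an adjusted p under 0.05 and a fold change above 1.5. An exact permutation test of 2 against 2 libraries cannot go below p = 0.333 and was not used. Non-overlap means that both libraries of a salinity lie beyond both of the other. Summaries used Python 3.11.15 with pandas 2.3.3. The fit was also run on simulated data for 35‰ versus 0‰. It recovered 0 of 200 genes changed 2-fold and 188 of 200 changed 4-fold, with 1 and 10 false calls. An absence of calls therefore cannot exclude 2-fold changes. The changed genes were drawn from those with a mean level of about 5 TPM or more, with noise independent between genes. Recovery at lower levels was not simulated. In 35‰ versus 0‰ the median standard error was 0.337 for the 57 genes and 0.284 over all genes, so the 4-fold recovery may not hold for the 57.

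Members were found by symbol and sorted by known role. The members, roles and gene lists were chosen with earlier results of these data known. Genes named with their values were 22 canonical proliferation genes (15 analysed, the others, such as mcm5, not analysed here), every called member, the 4 largest and 4 smallest fold changes among genes without overlap in each comparison, and the most abundant gene of each role, 36 in all. Genes named outside this rule were chosen after their values were seen. Alternatives were a mean TPM of at least 5, no filter, pseudocounts of 0.1 and 5, median-ratio scaling, no trend, only the salinities compared, the replicate number as a block, and each library left out.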

Additional observations from a re-analysis of the deposited data

How the results depend on the processing

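No gene of the 88 was called under any alternative run, and the smallest adjusted p from limma over all of them was 0.135, in 35‰ versus 0‰ with 1 library left out. With 2 libraries a salinity, single libraries set most counts and, in the comparisons with 35‰, the direction of the medians. Depth is unknown, and fold changes of genes near 1 TPM rest on the pseudocount.

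The number of the 88 genes with an unadjusted p under 0.05 in 18‰ versus 0‰, 1 as reported, was 0 with a mean TPM of at least 5, 3 with median-ratio scaling, 2 with no filter and 3 with only the 2 salinities compared. In 35‰ versus 0‰, 2 as reported, it was 1 with a mean TPM of at least 5, 1 with no trend and 1 with only the 2 salinities compared. In 35‰ versus 18‰, 3 as reported, it was 1 with a mean TPM of at least 5, 10 with median-ratio scaling and 5 with no filter. With the replicate number as a block it was 2 in 18‰ versus 0‰, and the block gave no call. The shares of all genes with an unadjusted p under 0.05 are not given for these alternatives. The counts therefore show only how far they move with the setting. Libraries sharing a number did not deviate together (r of 0.06, −0.04 and 0.05 across genes), so the numbers were not taken as pairs. A mean TPM of at least 5 kept 54 of the 88 genes. Without overlap, 18 of these 54 were lower in 18‰ versus 0‰ and 5 were lower in 35‰ versus 0‰. In 35‰ versus 18‰, 8 were higher and 6 lower. The shares of all genes are not given for this filter, so these counts cannot be set beside them. With median-ratio scaling, 14 of the 88 were higher and 11 lower in 35‰ versus 0‰, where 19.9% and 21.0% of all genes were. In 35‰ versus 18‰, 23 were higher and 11 lower, where 24.0% and 25.1% of all genes were.

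With each library left out, the number of the 88 higher without overlap was 11 to 29 in 18‰ versus 0‰. It was 7 to 55 in 35‰ versus 0‰ and 14 to 62 in 35‰ versus 18‰. The number lower was 33 to 52, 10 to 56 and 11 to 51 in these comparisons. A lone library overlaps less often by construction. The shares of all genes are not given for these settings, so the ranges are not a result about the 88 genes. Over the 88 genes, the median log2 fold change ran from −0.29 to 0.28 in 35‰ versus 0‰ and from −0.20 to 0.47 in 35‰ versus 18‰, and that of the 57 replication and division genes from −0.42 to 0.35 and from −0.23 to 0.58. Both ends came from leaving out 35‰ replicate 2 and 35‰ replicate 1. Of the 36 named genes, at most 6, 9 and 10 changed sign in the 3 comparisons with a library left out, and at most 6, 0 and 3 under the other alternatives.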
